A study of Mus musculus with 12 samples.

Results

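The genes described here encode the proteasome, its activators, its inhibitor and its assembly factors in mouse bone marrow progenitors. They were taken by name, as genes whose symbol starts with Psma to Psmg followed by a number. A mean of at least 1 TPM over 12 libraries was required (TPM is a level corrected for transcript length and set to the same total in each library). Of 50 genes with such a name, Psmb8 and Psmb9 were left out by the rule and Psmb11, listed at 0 TPM, fell under the limit. That left 47 of 24411 listed genes, and all 47 were among the 13755 genes tested. By role they comprise 15 genes of the 20S core (8 of the alpha ring and 7 of the beta ring), Psmb10, 17 genes of the 19S regulatory particle (6 ATPases, 3 other base subunits and 8 lid subunits), 5 genes of other caps and an inhibitor, 4 core assembly chaperones and 3 chaperones of the 19S base. The other 2 match by name only. Psmc3ip encodes a partner of recombination enzymes in meiosis and is no proteasome subunit, and Psme2b is a copy of Psme2.

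The proteasome is the protease that degrades most ubiquitin-tagged proteins in the cytoplasm and nucleus. Its 20S core is a barrel in which rings of alpha subunits guard the entrance and rings of beta subunits carry the proteolytic sites. The 19S particle caps the barrel, binds and strips ubiquitin chains and uses ATPases to unfold the substrate and thread it inside. Subunit genes are transcribed together, and the transcription factor NFE2L1 raises them when proteasome activity falls. In blood-forming cells, proteasome activity is also the source of peptides for antigen presentation and the target of inhibitors used against blood cancers.

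The RNA came from lineage-negative, cKit-positive cells of the femora and tibiae, a gate that holds stem cells and progenitors. All mice were C57BL/6. Lethally irradiated CD45.1 recipients had been given CD45.2 donor marrow mixed with wild-type CD45.1 support marrow, and 3 pIpC doses of 20 mg/kg, 1 every other day, began 4 weeks later. Cells were collected 6 months after pIpC. Every donor carried Mx1-Cre, a recombinase that pIpC switches on in blood cells and in other tissues, so the control group also had Cre and pIpC. Donors had Mx1-Cre alone (control), Mx1-Cre with the inv(3) allele, Mx1-Cre with heterozygous Sf3b1 K700E (a splicing-factor mutation), or Mx1-Cre with both alleles, and each of the 4 groups had 3 libraries. The labels say neither whether replicates are separate mice nor whether donor cells were sorted from support cells, so p-values measure the spread between these libraries.

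Library totals ran from 73074797 to 86555638 expected counts, the deposited estimates of fragments per gene. The inv(3) libraries stood apart in sex-linked RNA, with 4 to 8 counts of Y-linked genes against 19200 to 25380 in the other 9 libraries, and with Xist at 1952 ± 151 CPM (SD, n = 3; CPM, the count as a rate of the TMM-scaled library size) against 32.9 ± 8.11 in control. Each comparison with the inv(3) group, and the interaction, therefore also compares libraries without and with Y-linked RNA, whereas those among control, Sf3b1 K700E and both alleles do not. In Sf3b1 K700E libraries Xist was 77.1 to 210 CPM. Summed stem and progenitor markers were 887 to 959 CPM in control libraries and 992 to 1085 in Sf3b1 K700E, against 550 to 655 in inv(3) and 774 to 869 with both alleles. None of their 10 genes was at 0. By the test used below, 1 was higher and 6 lower in inv(3) against control. With both alleles the list was split, with 3 higher and 3 lower (-2.21 to 3.96 log2 units). Among all tested genes 18.4% were higher and 20.3% lower in inv(3), and 20.8% and 20.4% with both alleles.

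Promoter sequences are shown first for the genes the comparisons turn on. They are those 19S genes with a RefSeq promoter that fell with both alleles against control and again against Sf3b1 K700E, and Psmb5 and Psme1, which rose in inv(3) and with both alleles against Sf3b1 K700E. RefSeq promoters (build GRCm38.p6) were found for 39 of the 47 genes, and Psmd7, a 19S gene that also fell in both comparisons, has no entry. Each line gives the 120 bases before the RefSeq start of the gene, 5′ to 3′ on its own strand. The GENCODE gene span used for gene positions elsewhere starts further upstream in all of these but Psmc2, so the stretches overlap it in part and, for Psme1, in full. Capitals mark matches to the searched motifs. Those of Psmc1 (chr12:100110082-100110201, plus strand), Psmc2 (chr5:21785155-21785274, plus strand), Psmd12 (chr11:107479408-107479527, plus strand) and Psmd6 (chr14:14120946-14121065, minus strand) hold CCGGAAG, read on either strand, the core bound by ETS-family factors. That of Psmc5 (chr11:106256065-106256184, plus strand) holds GCATGCGC, bound by nuclear respiratory factor 1. That of Psmb5 (chr14:54617996-54618115, minus strand) holds TGACNNNGC, the core of the antioxidant response element. Psme1 (chr14:55578374-55578493, plus strand) holds no match in these letters.
Psmc1: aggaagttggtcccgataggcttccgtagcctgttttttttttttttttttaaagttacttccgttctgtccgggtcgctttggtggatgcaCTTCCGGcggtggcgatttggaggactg
Psmc2: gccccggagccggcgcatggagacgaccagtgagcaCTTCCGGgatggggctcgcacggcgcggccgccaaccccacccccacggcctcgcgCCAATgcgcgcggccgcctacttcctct
Psmc5: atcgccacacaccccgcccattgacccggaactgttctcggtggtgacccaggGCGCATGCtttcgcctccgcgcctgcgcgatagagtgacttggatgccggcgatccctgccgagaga
Psmd12: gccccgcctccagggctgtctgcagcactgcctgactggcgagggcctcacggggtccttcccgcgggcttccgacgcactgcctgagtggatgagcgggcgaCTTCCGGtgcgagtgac
Psmd6: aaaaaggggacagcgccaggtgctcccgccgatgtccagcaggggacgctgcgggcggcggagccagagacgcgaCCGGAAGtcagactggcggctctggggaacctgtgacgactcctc
Psmb5: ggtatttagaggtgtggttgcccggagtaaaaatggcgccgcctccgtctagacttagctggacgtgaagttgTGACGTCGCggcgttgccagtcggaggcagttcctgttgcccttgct
Psme1: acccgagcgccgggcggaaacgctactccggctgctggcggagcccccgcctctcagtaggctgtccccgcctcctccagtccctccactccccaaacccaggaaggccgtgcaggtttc

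A match is a description of the letters and not a binding site. In windows of 300 bases (250 before the start and 50 after), CCGGAAG was found in 15 of 39 members (38.5%), against 9.93% of 27025 genes. It was present in 9 of 14 19S genes and in 1 of 11 core genes. TGACNNNGC was found in 6 members (15.4%, against 13.99% of all genes), namely Psmb5, Psmb6, Psmc6, Psmd9, Psmd12 and Psme4. CCAAT, bound by NF-Y, was in 13 members (33.3%, against 41.1%), and TATAAA in 3 (7.69%, against 15.7%). Both strands were read for every motif. The 47 genes are spread over 16 chromosomes, with 10 of them on chromosome 11 and 5 on chromosome 14.

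Core subunits were the most abundant part of the set per length of transcript. Mean levels over the 12 libraries had a median of 282 TPM in the alpha ring and 274 TPM in the beta ring, against 157 TPM for the 19S ATPases and 128 TPM for the lid. The highest single level was Psme1 at 373 TPM, followed by Psma6 at 360 TPM. Psmb10, the inducible form of the beta subunit that Psmb7 otherwise supplies, was at 86.5 TPM. The inhibitor Psmf1 was at 20.1 TPM and Psma8, an alpha subunit known from testis, at 4.87 TPM. Levels varied little between replicates: the median coefficient of variation of the members' CPM was 3.05% in control, 4.47% in Sf3b1 K700E, 3.22% in inv(3) and 4.30% with both alleles, against 6.00% to 6.91% over all tested genes. Members and all tested genes were not matched for abundance, so these values do not show tighter control of proteasome genes.

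The summed level of the 47 genes was lower in both groups with inv(3). It was 7945 ± 113 TPM in control (SD, n = 3) and 8236 ± 238 TPM in Sf3b1 K700E, against 7329 ± 93.3 TPM in inv(3) and 7452 ± 142 TPM with both alleles. As a share of all expected counts the members took 0.540% ± 0.00482 in control and 0.560% ± 0.0138 in Sf3b1 K700E, against 0.504% ± 0.00487 in inv(3) and 0.501% ± 0.0111 with both alleles. The 6 libraries with inv(3) did not overlap the 6 without it in either measure. TMM scaling, used for the CPM values and tests below, sets each library to the bulk of its genes and not to its total, and on that scale the members' median difference was nearer to 0. With library totals alone, an alternative added after the data were seen, the median log2 fold change of inv(3) against control was -0.11, where TMM gave -0.04, and that of all tested genes was -0.07, where TMM gave 0.00. Whether there were fewer cells with high proteasome RNA or less RNA in each cell cannot be told apart in bulk libraries.

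In inv(3) against control, the activator gene Psme1 and the catalytic subunit gene Psmb5 rose, and the lid gene Psmd7 and the alpha gene Psma8 fell. By edgeR's quasi-likelihood test at an adjusted p (Benjamini-Hochberg) under 0.05, 3 of 47 members were higher and 5 lower, which is 17.02% of members beside 38.7% of all tested genes (18.4% higher and 20.3% lower). The members' median log2 fold change was -0.04, beside 0.00 for all tested genes. With library totals alone the counts were 2 higher and 15 lower. In 16 of 47 members the libraries of the 2 groups did not overlap, beside 51.8% of all tested genes. The call count was 4 without control replicate 2, without inv(3) replicate 1 or without inv(3) replicate 2, and 5 without inv(3) replicate 3, Sf3b1 K700E replicate 3 or both-alleles replicate 3, libraries that share the estimate of spread.

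In Sf3b1 K700E against control, no member passed the test in either direction, beside 8.84% of all tested genes (3.94% higher and 4.9% lower). DESeq2 and limma-voom also called 0, and 2 members had an unadjusted p under 0.05. The lowest adjusted p was 0.12, for Psmf1 at -0.10 ± 0.04 log2 units (SE), and the median over members was -0.01, the same as over all tested genes. In 10 of 47 members the groups did not overlap, beside 33.5% of all tested genes. With library totals alone 1 member was called higher.

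With both alleles against control, 3 members were higher and 18 lower, 44.7% of members beside 41.1% of all tested genes. Lower members made up 38.3% of the set, beside 20.4% of all tested genes, and higher members 6.38%, beside 20.8%. The median was -0.10, beside 0.00 for all tested genes, and groups did not overlap in 25 of 47 members, beside 54.8%. The size of this count rested on single libraries. Without both-alleles replicate 1 it was 5 of 47 (1 higher and 4 lower), beside 33.5% of all tested genes, and it was 10 without both-alleles replicate 3, 10 without control replicate 1 and 12 without control replicate 2. The calls of Psma8, Psmd12, Psmd7, Psme1 and Psmf1 were kept under every alternative that gave them a value. All other calls in this comparison were lost without both-alleles replicate 1.

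Against Sf3b1 K700E, the both-alleles group had 4 members higher and 17 lower, 44.7% of members beside 49.2% of all tested genes. Lower members made up 36.2%, beside 23.5% of all tested genes, and higher members 8.51%, beside 25.7%. The median was -0.09, beside 0.03. The groups did not overlap in 20 of 47 members, beside 57.7% of all tested genes. With library totals alone 2 were higher and 31 lower. Without both-alleles replicate 1 the count was 11. This comparison and that with control share the both-alleles libraries.

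Against inv(3), the both-alleles group had 2 called members, both of them ATPase genes and lower (4.26% of members, beside 22.6% of all tested genes, split into 13.4% higher and 9.13% lower). Psmc3 fell by 0.13 ± 0.04 log2 units (SE, adjusted p = 0.029) and Psmc2 by 0.13 ± 0.04 (adjusted p = 0.048). Neither was called without both-alleles replicate 1, and the count ran from 0 to 7 with 1 library left out. Groups did not overlap in 14 of 47 members, beside 39.4% of all tested genes. The interaction, which asks whether Sf3b1 K700E shifts a gene by a different amount when inv(3) is present, called 0 members by edgeR, DESeq2 and limma-voom, beside 0.836% of all tested genes by edgeR (0.4% higher and 0.436% lower). Of the members, 3 had an unadjusted p under 0.05, and the lowest adjusted p was 0.20, for Psmd12.

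**Figure D1:**
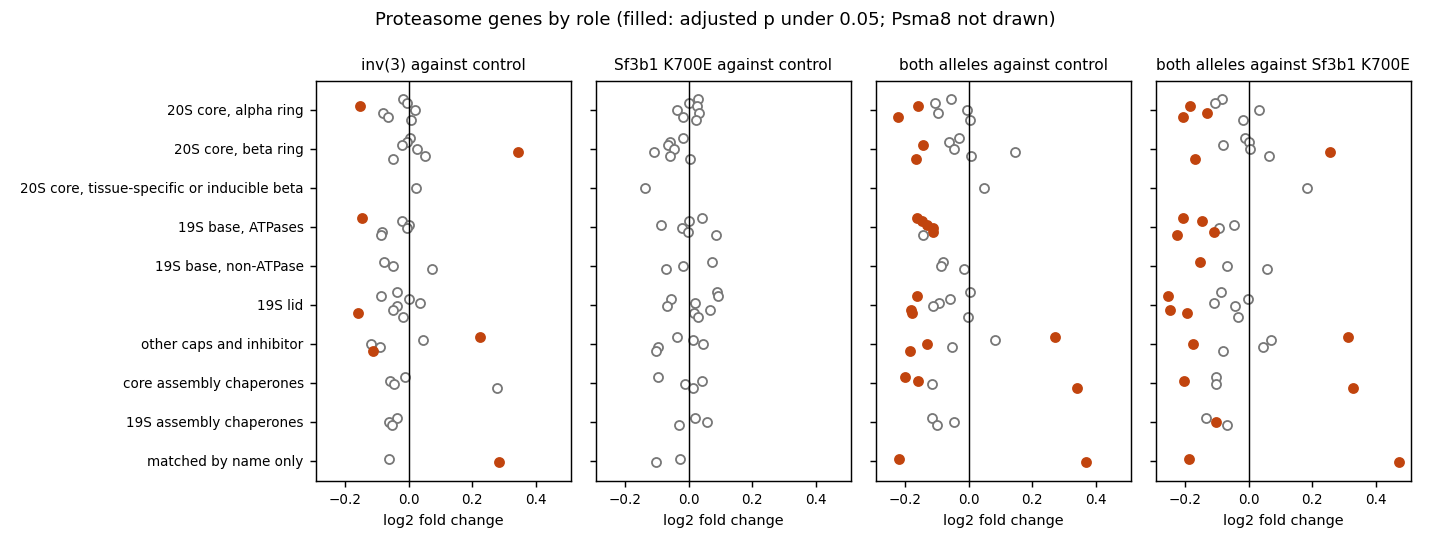
Log2 fold change (horizontal axis) of 46 members in 4 comparisons, with members grouped by role on the vertical axis; filled points passed edgeR's test at an adjusted p under 0.05, open points did not, and Psma8 lies off the axis and is not drawn. Filled points are absent in Sf3b1 K700E against control, and lie mostly left of 0 in the 2 comparisons of both alleles. There Psme1, Psmg4 and Psme2b lie to the right, as does Psmb5 against Sf3b1 K700E.

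Psma8, the alternative form of the alpha subunit supplied elsewhere by Psma7, had the largest change of the set. It met the limit of 1 TPM only through the groups without inv(3). Its mean was 9.83 TPM in control and 9.15 in Sf3b1 K700E, against 0.277 in inv(3) and 0.22 with both alleles. The fall of Psma8 is therefore no evidence on the other members. Its expected counts were 823, 503 and 721 in control, 2, 9 and 52 in inv(3), 374, 744 and 809 in Sf3b1 K700E and 16, 15 and 16 with both alleles. The 6 libraries with inv(3) were all below the 6 without it. In CPM these values were 10.8, 6.34 and 8.88 in control and 4.51, 9.60 and 8.99 in Sf3b1 K700E, against 0.0263, 0.124 and 0.641 in inv(3) and 0.191, 0.195 and 0.211 with both alleles. Inv(3) libraries thus differed among themselves far more than both-alleles libraries did. Psma8 fell by 4.996 ± 0.62 log2 units in inv(3) against control (SE, adjusted p = 0.00011), by 5.44 ± 0.65 with both alleles against control (adjusted p = 6.4e-05) and by 5.27 ± 0.64 with both alleles against Sf3b1 K700E (adjusted p = 6.0e-05). In inv(3) against control it fell by 6.84 without inv(3) replicate 3 and fell by 4.47 without inv(3) replicate 1. Sf3b1 K700E against control gave -0.17 ± 0.47 (adjusted p = 0.86). It was a small part of the alpha ring where it was highest: per 1000 TPM of Psma7 there were 20.1 to 34.2 TPM of Psma8 in control and 13.9 to 29.9 in Sf3b1 K700E, against 0.0880 to 2.04 in inv(3) and 0.571 to 0.707 with both alleles. Psma7 itself was not called in any comparison, and its largest difference was -0.03 log2 units.

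**Figure D2:**
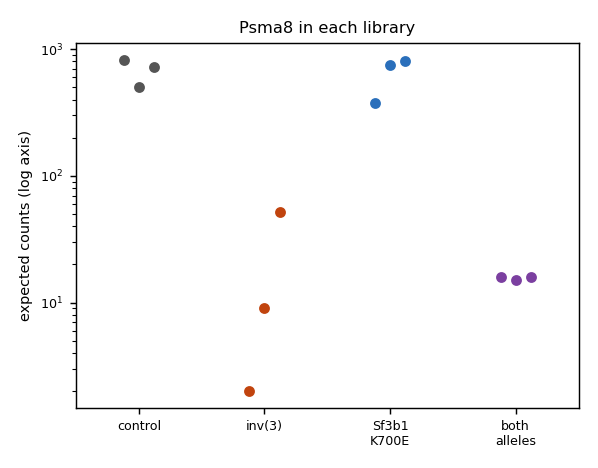
Expected counts of Psma8 in each of the 12 libraries on a log axis, 3 points per group. Control and Sf3b1 K700E libraries lie between 374 and 823 counts, and the libraries with inv(3) between 2 and 52.

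Psma8 lies on chromosome 18, from 14706151 to 14762301 on the plus strand (GRCm38), between Ss18 and Taf4b, and no exon of another annotated gene overlaps its own. Of these neighbours, Ss18 rose by 0.14 log2 units in inv(3) and by 0.14 with both alleles against control (adjusted p = 0.014 and 0.011). Taf4b fell by 0.26 in inv(3) (adjusted p = 0.037) and differed by 0.06 with both alleles (adjusted p = 0.65). Marker genes of other cell types moved in the same comparisons. The counts of markers called are to be read beside all tested genes. Of these, 18.4% were higher and 20.3% lower in inv(3) against control, and 20.8% and 20.4% with both alleles. Summed macrophage markers (14 genes) were 358 to 442 CPM in control and 477 to 666 in Sf3b1 K700E, against 86.5 to 133 in inv(3) and 70.8 to 92.2 with both alleles. Against control, 9 of the 14 were lower and 1 higher in inv(3), and 10 were lower and 0 higher with both alleles. Megakaryocyte markers (9 genes) were 136 to 177 CPM in control and 27.4 to 47.8 in inv(3), with 7 of 9 lower. Mast cell, basophil and eosinophil markers (12 genes) were 1055 to 1190 CPM in control and 412 to 456 in inv(3), with 11 of 12 lower. The sum of mature neutrophil markers (12 genes) went the other way, from 1593 to 2312 CPM in control to 5004 to 6120 in inv(3) and 3020 to 4276 with both alleles. Against control, 8 of the 12 were higher and 1 lower in inv(3), the latter by 4.93 log2 units. With both alleles 8 were higher and 0 lower. None of these markers was at 0, and their part in the results for Psma8 or for the other members was not tested.

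Of the other alpha-ring genes, which form the outer rings of the core, Psma3 and Psma6 fell with both alleles. Psma3 was at 180, 172 and 165 CPM in control, 156, 151 and 158 in inv(3), 164, 183 and 179 in Sf3b1 K700E and 146, 161 and 156 with both alleles. Its inv(3) and both-alleles libraries lay below all control libraries. It fell by 0.15 ± 0.05 log2 units in inv(3) against control (SE, adjusted p = 0.040), by 0.16 ± 0.05 with both alleles against control (adjusted p = 0.034) and by 0.19 ± 0.05 with both alleles against Sf3b1 K700E (adjusted p = 0.014). The inv(3) call was kept in 11 of 22 alternatives. Psma6 was at 195, 182 and 174 CPM in control, 168, 179 and 180 in inv(3), 169, 187 and 189 in Sf3b1 K700E and 144, 171 and 158 with both alleles. Both-alleles libraries lay below all control libraries and overlapped those of Sf3b1 K700E. Psma6 fell by 0.22 ± 0.07 against control (adjusted p = 0.020) and by 0.21 ± 0.07 against Sf3b1 K700E (adjusted p = 0.025), and neither call held without both-alleles replicate 1 (adjusted p = 0.076 and 0.096). Psma5 fell by 0.13 with both alleles against Sf3b1 K700E (adjusted p = 0.044). Psma1, Psma2, Psma4 and Psma7 were not called in any comparison.

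In the beta ring, Psmb5 rose in inv(3). Psmb5 carries the chymotrypsin-like site and is the subunit that bortezomib inhibits. It was at 72.8, 82.6 and 83.8 CPM in control, 93.1, 112 and 98.2 in inv(3), 81.4, 70.5 and 69.8 in Sf3b1 K700E and 85.9, 94.0 and 84.6 with both alleles. All 6 libraries with inv(3) were above all 6 without it, by a narrow margin between both alleles and control. The rise was 0.34 ± 0.08 log2 units in inv(3) against control (SE, adjusted p = 0.0073) and 0.26 ± 0.08 with both alleles against Sf3b1 K700E (adjusted p = 0.026). Both alleles against control gave 0.15 ± 0.08 (adjusted p = 0.19), and both alleles against inv(3) -0.20 ± 0.08 (adjusted p = 0.11). The inv(3) call was kept in all 22 alternatives, and that against Sf3b1 K700E ended without Sf3b1 K700E replicate 3 (adjusted p = 0.12). Relative to the median of the beta ring in TPM, Psmb5 was at 0.619 to 0.750 in control and 0.613 to 0.742 in Sf3b1 K700E, against 0.835 to 0.973 in inv(3) and 0.778 to 0.831 with both alleles.

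Psmb7, which carries the trypsin-like site, and Psmb3, a structural beta subunit, fell with both alleles. Psmb7 was at 134, 124 and 123 CPM in control, 121, 122 and 125 in inv(3), 120, 133 and 130 in Sf3b1 K700E and 108, 118 and 114 with both alleles. The both-alleles libraries were the lowest of all. Psmb7 fell by 0.17 ± 0.05 log2 units against control (SE, adjusted p = 0.021) and by 0.17 ± 0.05 against Sf3b1 K700E (adjusted p = 0.016). Its exons overlap those of Nek6 on the other strand, and these unstranded libraries cannot part reads from the shared stretch. Psmb3 was at 105, 104 and 103 CPM in control, 98.1, 107 and 103 in inv(3), 101, 101 and 97.3 in Sf3b1 K700E and 91.8, 98.3 and 92.3 with both alleles. It fell by 0.15 ± 0.04 with both alleles against control (adjusted p = 0.016), with no overlap between those groups. Neither this call nor that of Psmb7 against control held without both-alleles replicate 1.

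Psmb10 replaces Psmb7 in immunoproteasomes. It was at 49.6, 58.4 and 61.8 CPM in control, 56.3, 60.9 and 55.4 in inv(3), 62.5, 46.3 and 45.6 in Sf3b1 K700E and 64.0, 58.0 and 53.4 with both alleles. All 4 groups overlapped, and no comparison was called, with differences from -0.14 to 0.18 log2 units (adjusted p of 0.23 or more). In control, replicate 1 was the low library, and in Sf3b1 K700E replicate 1 was the high one. The same opposite order was seen for the lid gene Psmd3, at 125, 150 and 151 CPM in control and 155, 128 and 124 in Sf3b1 K700E. The ratio of Psmb10 to Psmb7 in TPM was 0.270 to 0.364 in control and 0.342 to 0.431 with both alleles. Psmb1, Psmb2, Psmb4 and Psmb6 were not called in any comparison.

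The 19S ATPases form the ring that unfolds substrates, and 5 of 6 fell with both alleles against control and 4 of 6 against Sf3b1 K700E, beside 20.4% and 23.5% of all tested genes lower. Without both-alleles replicate 1 none of the 5 was called against control, and Psmc1 and Psmc6 were the ATPase genes still called against Sf3b1 K700E. Psmc1 was at 146, 143 and 137 CPM in control, 127, 123 and 134 in inv(3), 140, 151 and 147 in Sf3b1 K700E and 121, 130 and 129 with both alleles. All 6 libraries with inv(3) were below all 6 without it. Psmc1 fell by 0.15 ± 0.05 log2 units in inv(3) against control (SE, adjusted p = 0.032), by 0.16 ± 0.05 with both alleles against control (adjusted p = 0.018) and by 0.21 ± 0.05 against Sf3b1 K700E (adjusted p = 0.0041). Its call in inv(3) against control was lost in 5 of 12 fits with 1 library left out. Psmc6 was at 125, 115 and 113 CPM in control, 111, 111 and 110 in inv(3), 115, 130 and 128 in Sf3b1 K700E and 102, 110 and 107 with both alleles. It fell by 0.23 ± 0.06 with both alleles against Sf3b1 K700E (adjusted p = 0.0051), and its difference of -0.14 ± 0.06 from control did not pass (adjusted p = 0.058). The groups did not overlap in either case.

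Psmc2 and Psmc3 were the 2 members called between both alleles and inv(3). Psmc2 was at 118, 113 and 112 CPM in control, 114, 110 and 113 in inv(3), 112, 117 and 114 in Sf3b1 K700E and 98.3, 108 and 103 with both alleles. The both-alleles libraries lay below all 9 others. Psmc2 fell by 0.15 ± 0.04 log2 units against control (SE, adjusted p = 0.015) and by 0.15 ± 0.04 against Sf3b1 K700E (adjusted p = 0.012). Psmc3 was at 188, 194 and 191 CPM in control, 193, 188 and 193 in inv(3), 183, 179 and 178 in Sf3b1 K700E and 169, 183 and 171 with both alleles. Both-alleles and control libraries did not overlap, and the fall was 0.13 ± 0.04 (adjusted p = 0.016). Its both-alleles libraries overlapped those of Sf3b1 K700E (-0.05 ± 0.04, adjusted p = 0.33). Reads of Psmc3 cannot be parted from those of Slc39a13 where their exons overlap. Psmc4 fell by 0.11 against control, and Psmc5 by 0.11 against control and by 0.11 against Sf3b1 K700E (adjusted p of 0.036, 0.036 and 0.034).

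Among the non-ATPase subunits of the base, Psmd1 and Psmd2 are scaffolds and Psmd4 is a ubiquitin receptor. Only Psmd1 passed, in 1 of the 6 comparisons. It was at 235, 226 and 219 CPM in control, 217, 213 and 213 in inv(3), 225, 250 and 240 in Sf3b1 K700E and 208, 221 and 214 with both alleles. It fell by 0.15 ± 0.05 log2 units with both alleles against Sf3b1 K700E (SE, adjusted p = 0.017), with no overlap, and its exons overlap those of Htr2b and Gm21972.

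In the lid, which holds the deubiquitinase Psmd14 and its support subunits, Psmd7, Psmd12 and Psmd6 fell and the other 5 were not called. Psmd7 is the partner of Psmd14. It was at 162, 161 and 163 CPM in control, 143, 147 and 144 in inv(3), 165, 165 and 162 in Sf3b1 K700E and 136, 150 and 142 with both alleles. The 6 libraries with inv(3) lay below the 6 without it. Psmd7 fell by 0.16 ± 0.04 log2 units in inv(3) against control (SE, adjusted p = 0.0084), by 0.18 ± 0.04 with both alleles against control (adjusted p = 0.0043) and by 0.20 ± 0.04 against Sf3b1 K700E (adjusted p = 0.0019). These calls were kept in all 22 alternatives.

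Psmd12 and Psmd6 are scaffold subunits of the lid. Psmd12 was at 89.2, 88.7 and 86.9 CPM in control, 83.7, 83.7 and 81.9 in inv(3), 89.8, 98.3 and 94.3 in Sf3b1 K700E and 74.5, 81.1 and 81.1 with both alleles. The 4 groups were ordered without overlap, from both alleles up through inv(3) and control to Sf3b1 K700E. Psmd12 fell by 0.16 ± 0.04 log2 units with both alleles against control (SE, adjusted p = 0.012) and by 0.26 ± 0.04 against Sf3b1 K700E (adjusted p = 0.00054). The neighbouring steps, inv(3) against control at -0.09 ± 0.04 (adjusted p = 0.14), Sf3b1 K700E against control at 0.09 ± 0.04 (adjusted p = 0.21) and both alleles against inv(3) at -0.08 ± 0.04 (adjusted p = 0.25), did not pass. Psmd6 was at 87.6, 80.4 and 78.1 CPM in control, 76.9, 83.1 and 77.8 in inv(3), 80.3, 89.6 and 87.6 in Sf3b1 K700E and 69.0, 75.8 and 71.9 with both alleles. The both-alleles libraries were below all 9 others, and the falls were 0.18 ± 0.06 against control (adjusted p = 0.025) and 0.25 ± 0.06 against Sf3b1 K700E (adjusted p = 0.0040). The call against control was lost without both-alleles replicate 1, and that against Sf3b1 K700E was kept under every alternative.

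**Figure D3:**
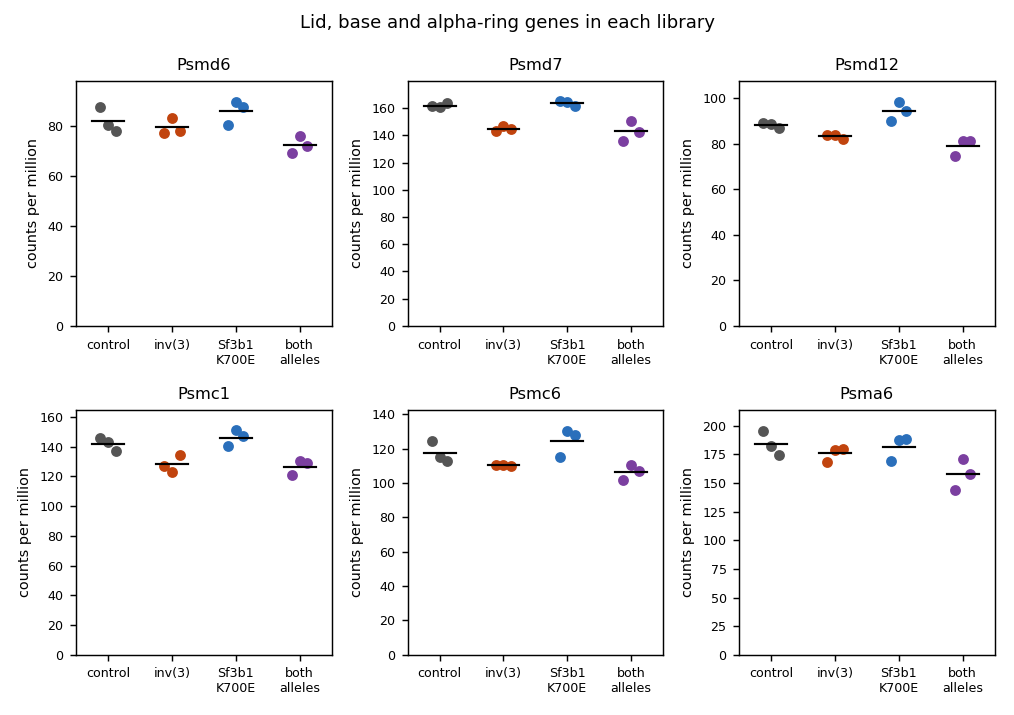
TMM-scaled CPM of 3 lid genes, 2 ATPase genes and Psma6 in each library, 3 points per group and a bar at the mean, with the vertical axes starting at 0. The both-alleles libraries of Psmd6 and Psmd12 lie at the bottom of their panels, and for Psmd7 and Psmc1 both groups with inv(3) lie below both groups without it.

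Core and regulatory particle were then set side by side. In inv(3) against control the median log2 fold change was -0.00 over the 15 core genes (1 higher, 2 lower) and -0.04 over the 17 genes of the 19S particle (0 higher, 2 lower). With both alleles against control it was -0.06 for the core (0 higher, 5 lower) and -0.11 for the 19S particle (0 higher, 8 lower), beside 20.8% higher and 20.4% lower among all tested genes. Against Sf3b1 K700E it was -0.08 (1 higher, 5 lower) and -0.11 (0 higher, 8 lower), beside 25.7% higher and 23.5% lower. These counts include the calls that were lost without both-alleles replicate 1, which left 5 of 21 members called against control and 11 of 21 against Sf3b1 K700E. Psma8 is among the lower core genes in each of these comparisons. Between both alleles and inv(3) both medians were -0.06, and in Sf3b1 K700E against control they were -0.02 and 0.02. Without Psma8, whose few counts pull down the core's mean, the mean log2 CPM of the core minus that of the 19S particle was 0.0383 to 0.0636 in control and 0.00909 to 0.0255 in Sf3b1 K700E, against 0.0716 to 0.110 in inv(3) and 0.0752 to 0.0951 with both alleles. The 6 libraries with inv(3) were above all 6 without it, and Sf3b1 K700E libraries were below control libraries. The distance between the group means of inv(3) (0.0957) and control (0.0478) compares with a pooled SD of 0.0142 between replicates. This order depends on which genes are counted. With Psma8 kept it turned around, at -0.255 to -0.181 in control and -0.684 to -0.402 in inv(3). Psmb5, which rose by 0.34 log2 units in inv(3) against control, was kept in the core. Its part in the order was not tested, so the order is not shown to be a shift of the core as a whole. These values are a description, since the measure was formed with the members' results known. Of the 47 members, 32 had their lowest group mean with both alleles, including 10 core and 14 19S genes, beside 23.4% of all tested genes. That count belongs to TMM-scaled CPM: in TPM, which keeps the library total, 14 members were lowest with both alleles and 29 in inv(3).

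**Figure D4:**
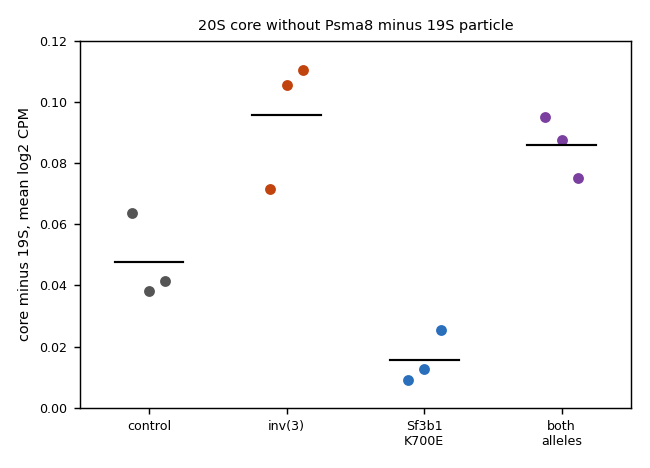
Mean log2 CPM of 14 core genes (Psma8 left out, Psmb5 kept) minus that of 17 genes of the 19S particle in each library, 3 points per group and a bar at the group mean. Libraries with inv(3) lie at 0.0716 to 0.110 and those without it at 0.00909 to 0.0636.

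The alternative activators were split. Psme1 and Psme2 encode the alpha and beta subunits of the PA28 ring, which opens the core without ATP and is induced by interferon-gamma. Psme1 was at 164, 160 and 165 CPM in control, 190, 193 and 189 in inv(3), 162, 157 and 157 in Sf3b1 K700E and 201, 197 and 193 with both alleles. All 6 libraries with inv(3) were above all 6 without it. The rise was 0.22 ± 0.04 log2 units in inv(3) against control (SE, adjusted p = 0.00040), 0.27 ± 0.04 with both alleles against control (adjusted p = 8.4e-05) and 0.31 ± 0.04 against Sf3b1 K700E (adjusted p = 2.5e-05), and these calls were kept in all 22 alternatives. Psme2, whose gene lies beside that of Psme1, was at 115, 108 and 110 CPM in control, 115, 110 and 118 in inv(3), 111, 115 and 110 in Sf3b1 K700E and 113, 121 and 119 with both alleles. Its groups overlapped, and its differences of 0.04, 0.08 and 0.07 in the same comparisons did not pass (adjusted p = 0.45, 0.16 and 0.21). With library totals alone Psme2 was at -0.03 in inv(3) against control. The ratio of Psme1 to Psme2 in TPM was 1.28 to 1.35 in control and 1.23 to 1.31 in Sf3b1 K700E, against 1.44 to 1.57 in inv(3) and 1.47 to 1.60 with both alleles.

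The exons of Psme1 share 14 bases with those of Emc9 on the other strand. Psme2b, the intronless copy of Psme2, was at 3.39, 3.01 and 3.10 CPM in control, 3.93, 3.84 and 3.81 in inv(3), 2.85, 2.83 and 3.17 in Sf3b1 K700E and 4.29, 3.95 and 4.04 with both alleles. Its 6 libraries with inv(3) lay above the 6 without it, and it rose by 0.28 ± 0.10 log2 units in inv(3) against control (SE, adjusted p = 0.045), by 0.37 ± 0.10 with both alleles against control (adjusted p = 0.013) and by 0.47 ± 0.10 against Sf3b1 K700E (adjusted p = 0.0024). The call in inv(3) against control was lost in 9 of 12 fits with 1 library left out. Reads shared with Psme2, or with 9930111J21Rik1 where exons overlap, cannot be assigned with certainty, so Psme2b is uncertain.

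**Figure D5:**
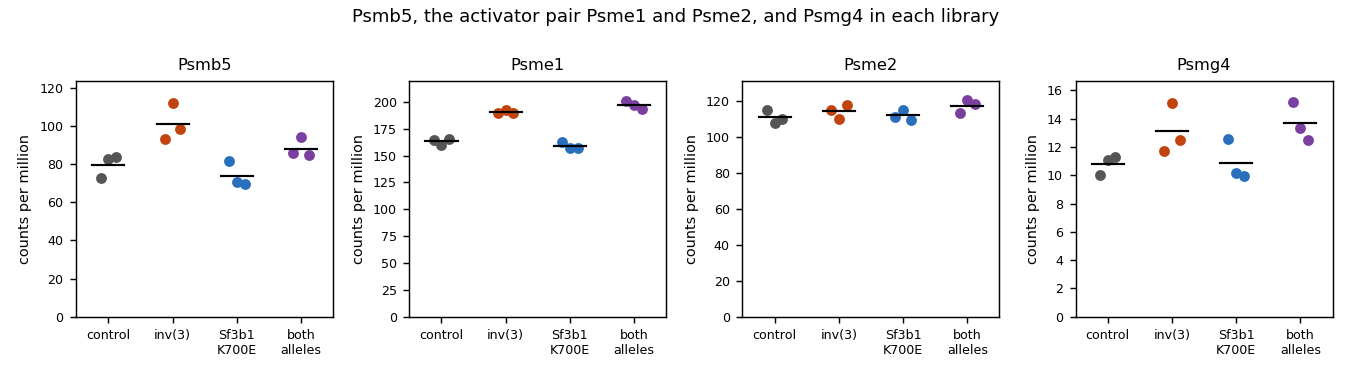
TMM-scaled CPM of Psmb5, Psme1, Psme2 and Psmg4 in each library, 3 points per group and a bar at the mean, with the vertical axes starting at 0. Psme1 lies at 189 to 201 in libraries with inv(3) and at 157 to 165 in the others, while the groups of Psme2 overlap.

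Psmf1 encodes PI31, known as an inhibitor of the core in vitro. It was at 41.5, 43.3 and 43.4 CPM in control, 39.3, 39.2 and 40.02 in inv(3), 40.1, 40.2 and 38.8 in Sf3b1 K700E and 36.6, 38.8 and 37.3 with both alleles. Every control library was above every other library. Psmf1 fell by 0.11 ± 0.04 log2 units in inv(3) against control (SE, adjusted p = 0.044) and by 0.18 ± 0.04 with both alleles against control (adjusted p = 0.0031), and the first of these calls was kept in 9 of 22 alternatives. Psme3, the nuclear PA28-gamma activator, fell by 0.13 with both alleles against control (adjusted p = 0.033) and by 0.18 against Sf3b1 K700E (adjusted p = 0.0064). Psme4, which encodes the activator PA200, was not called in any comparison.

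Assembly chaperones of the core, encoded by Psmg1 to Psmg4, were also split. Psmg1 and Psmg2 form a pair that helps to build the alpha ring. Psmg1 was at 37.7, 37.2 and 35.9 CPM in control, 33.7, 39.1 and 37.1 in inv(3), 33.7, 35.4 and 34.6 in Sf3b1 K700E and 30.8, 34.7 and 30.9 with both alleles, and fell by 0.20 ± 0.06 log2 units with both alleles against control (SE, adjusted p = 0.024). Psmg2 was at 38.3, 37.5 and 39.5 CPM in control, 35.6, 38.1 and 37.0 in inv(3), 39.2, 40.9 and 38.7 in Sf3b1 K700E and 33.0, 35.6 and 34.6 with both alleles, and fell by 0.16 ± 0.05 against control (adjusted p = 0.015) and by 0.20 ± 0.05 against Sf3b1 K700E (adjusted p = 0.0033). For both genes the both-alleles libraries lay below all control libraries.

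Psmg4, a partner of Psmg3 in the same step, rose. It was at 10.05, 11.1 and 11.3 CPM in control, 11.7, 15.1 and 12.5 in inv(3), 12.6, 10.1 and 9.94 in Sf3b1 K700E and 15.2, 13.3 and 12.5 with both alleles. It rose by 0.34 ± 0.12 log2 units with both alleles against control (SE, adjusted p = 0.039) and by 0.33 ± 0.12 against Sf3b1 K700E (adjusted p = 0.039), where the groups overlapped. These calls were kept in 13 and 10 of 22 alternatives. Psmg3 was not called in any comparison. Of the base chaperones, Psmd5 was at 74.6, 78.6 and 79.8 CPM in Sf3b1 K700E and 72.9, 70.9 and 73.2 with both alleles, a fall of 0.10 ± 0.04 (adjusted p = 0.043), and Psmd9 and Psmd10 were not called. Psmc3ip, which is no subunit, was at 23.3, 22.7 and 22.7 CPM in control and 17.8, 21.5 and 19.7 with both alleles, and fell by 0.22 ± 0.07 against control (adjusted p = 0.026) and by 0.19 ± 0.07 against Sf3b1 K700E (adjusted p = 0.041).

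Other genes of the pathway were counted from lists, to be read beside the 18.4% higher and 20.3% lower of all tested genes in inv(3) against control, 3.94% and 4.9% in Sf3b1 K700E against control, and 20.8% and 20.4% with both alleles against control. Of 11 proteasome partners that the name rule does not take, 2 were higher and 2 lower in inv(3), and 0 higher and 2 lower with both alleles, each against control. The largest change was in Pomp, the factor that matures the assembling core. Pomp was at 87.1 ± 5.52 CPM in control and 92.3 ± 2.497 in Sf3b1 K700E, against 63.7 ± 1.79 in inv(3) and 58.9 ± 2.73 with both alleles (SD, n = 3 each). Its libraries with inv(3), at 56.3 to 65.6 CPM, lay below those without it, at 82.9 to 94.5. Pomp fell by 0.45 log2 units in inv(3) against control (adjusted p = 4.6e-05), by 0.57 with both alleles against control (adjusted p = 6.3e-06) and by 0.65 against Sf3b1 K700E (adjusted p = 2.1e-06). Txnl1, a redox protein bound to the 19S particle, fell by 0.15 and Usp14, its deubiquitinase, differed by -0.15 with both alleles against control (adjusted p = 0.028 and 0.052).

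Of 12 genes of the NFE2L1 pathway, 2 were higher in inv(3) (Mafg and Sel1l) and 1 with both alleles, each against control, and none was lower. Nfe2l1 itself was at 126 ± 3.14 CPM in control and 141 ± 2.33 with both alleles (SD, n = 3) and rose by 0.16 log2 units (adjusted p = 0.011). It differed by 0.08 in inv(3) and by -0.00 in Sf3b1 K700E (adjusted p = 0.17 and 0.99). Of 18 genes for ubiquitin, E1 enzymes and shuttle receptors, 6 were higher and 3 lower in inv(3), and 5 higher and 2 lower with both alleles. In all, 50% and 38.9% of this list were called, beside 38.7% and 41.1% of all tested genes, with medians of 0.04 and 0.05. The autophagy receptors Sqstm1 and Nbr1 rose by 0.25 and 0.24 in inv(3) and by 0.29 and 0.35 with both alleles. In Sf3b1 K700E against control, Uba6 rose by 0.26 and Ubb fell by 0.19 (adjusted p = 0.023 and 0.032).

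Of 20 interferon and antigen-processing genes, 11 were higher in inv(3), 1 in Sf3b1 K700E and 15 with both alleles, each against control, and none was lower, with medians of 0.34, 0.18 and 0.58 log2 units. Tapbp, which loads peptides onto class I molecules, rose by 0.48 log2 units in inv(3) and by 0.44 with both alleles (adjusted p = 0.00030 and 0.00049). B2m, their light chain, rose by 0.35 and 0.42 (adjusted p = 0.0093 and 0.0026). The peptide transporter genes Tap1 and Tap2 did not pass, at -0.08 and -0.24 in inv(3) and -0.03 and -0.21 with both alleles. Of 22 chaperone and heat-shock genes, 6 were higher and 9 lower in inv(3), and 6 higher and 6 lower with both alleles. Hspa1a, an inducible HSP70, rose by 1.92 in inv(3) and by 1.64 with both alleles (adjusted p = 7.8e-05 and 0.00018), and Cct3 and Cct8, subunits of the TRiC chaperonin, fell by 0.27 and 0.22 in inv(3) and by 0.14 and 0.22 with both alleles. In Sf3b1 K700E 5 were higher and 0 lower, among them Hsph1 at 0.54 and Hspa8 at 0.39 (adjusted p = 0.0073 and 0.0079). Of 12 targets of NFE2L2, a related factor of the oxidative stress response, 2 were higher and 2 lower in inv(3), 3 higher and 1 lower in Sf3b1 K700E, and 5 higher and 2 lower with both alleles.

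Transcript usage of the members was read from effective length, the transcript length in bases reduced for the length of the sequenced fragments. For Psma7 the length column had a mean of 955 bases. Of the members, 7 had more than 1 listed transcript and enough counts for that test (Psma7, Psmd2, Psmd4, Psmd10, Psme2, Psmf1 and Psmg4). By limma on log2 effective length none of the 7 was called in any of the 6 comparisons. In all 7 the value was lowest in inv(3) replicate 2 (781 bases for Psma7). Shifts shared by the genes of a library were not taken out. The test therefore reads fragment length as well as transcript usage. Of 3335 genes tested, 0.27% were called in inv(3) against control, 0.03% in Sf3b1 K700E against control, 0.48% with both alleles against control, 0.03% with both alleles against inv(3), 0.57% with both alleles against Sf3b1 K700E and 0% in the interaction. Psma7 had an effective length of 790 ± 2.502 bases in control and 790 ± 0.766 with both alleles (SD, n = 3).

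Summed markers of S and G2/M phase (15 genes) were 4644 to 4719 CPM in control libraries, 4490 to 4642 in Sf3b1 K700E, 4583 to 4750 in inv(3) and 3993 to 4309 with both alleles. In that last group 10 of 15 were lower than in control, beside 20.4% of all tested genes. The part of these levels in the lower proteasome genes of the both-alleles group was not tested. Summed erythroid markers (12 genes) were 886 to 953 CPM in control libraries and 1053 to 1151 in Sf3b1 K700E. The sums were low in both groups with inv(3), at 359 to 492 in inv(3) and 419 to 483 with both alleles. Against control, 7 genes were lower and 1 higher in inv(3), the latter by 4.49 log2 units. With both alleles 11 were lower and 1 higher, by 5.33. Among all tested genes 18.4% were higher and 20.3% lower in inv(3), and 20.8% and 20.4% with both alleles.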

How the data were processed

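Poly(A) RNA of 12 libraries was sequenced unstranded, per the labels' protocols, with 3 libraries in each of 4 groups taken from the labels. The deposited tables have the columns of RSEM: per the file headers they hold expected counts, TPM, FPKM, and a length and an effective length per gene. Named in the submitters' processing notes are bcl2fastq and mm10, with the aligner not given in the sources used here. The expected counts as deposited are estimated and not normalized. The deposited TPM values sum to a fixed total per library and served for levels between genes. They also served, where stated, for sums, ratios and lowest group means set side by side between groups. The deposited FPKM values were not used. The length and effective length columns were made by the authors' counting program.

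Expected counts were rounded to whole numbers, filtered with filterByExpr (13755 of 24411 genes kept), TMM-scaled and fitted in 1 quasi-likelihood model over the 4 groups (edgeR 4.0.16 under R 4.3.3), which share an estimate of the spread. Two-sided p-values were adjusted by Benjamini-Hochberg over all genes tested in a comparison, with a limit of 0.05. Errors of log2 fold changes are standard errors. Effective length was tested with limma 3.58.1 on the log2 scale. The members and gene lists were chosen with earlier results of these data known. Values in every library are given for up to 5 called members with the largest rise and 5 with the largest fall in each comparison, for the called member with the smallest p in each role, and for Psmb7, Psmb10, Psme1 and Psme2. Others are named by role. The code was tested on simulated data. Alternatives were RLE factors, no filter, a mean CPM of 5 or more, limma-voom, DESeq2 1.42.0, the compared groups alone, a replicate block, an effective-length offset, the 50 most abundant genes left out of the scaling, each library left out and, added after the data were seen, library totals alone and the core without Psma8. At library totals of 73074797 to 86555638, low counts limit the precision mainly for Psma8 and Psme2b; replicates of a group differed by more than counting error. Gene positions come from GENCODE (GRCm38). Values of a few genes outside the set are not reported here.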

Additional observations from a re-analysis of the deposited data

How the results depend on the processing

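The count of members called in inv(3) against control was 8, and it was 5 without a low-count filter, 5 with the compared groups alone and 17 with library totals alone. In Sf3b1 K700E against control it was 0 and became 1 with library totals alone. With both alleles against inv(3) it was 2, and became 4 with RLE factors, 1 without a filter, 1 at a mean of 5 CPM, 6 with DESeq2, 0 with the compared groups alone, 4 with an effective-length offset, 4 with the 50 most abundant genes left out and 0 with library totals alone. With both alleles against Sf3b1 K700E it was 21, and 33 with library totals alone. The median of the core minus that of the 19S particle was 0.0309 in that comparison, and 0.0617 at a mean of 5 CPM or 0.0615 without Psma8. In the interaction it was 0.00057, and 0.0188 with limma-voom. The causes were not tested, except that the filter at 5 CPM takes out Psma8.

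With 1 library left out, the counts ran from 4 to 8 in inv(3) against control, from 5 to 23 with both alleles against control, from 0 to 7 against inv(3) and from 11 to 22 against Sf3b1 K700E, and stayed at 0 in Sf3b1 K700E against control and in the interaction. Core minus 19S ran from 0.0110 to 0.0335, from -0.0484 to 0.00559 (Sf3b1 K700E against control), from 0.0285 to 0.0597, from -0.0248 to 0.0134, from 0.0177 to 0.0492 and from -0.0217 to 0.0499 in the interaction, so its sign held in 3 of the 6.

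Directions that reversed were those of small differences without a call. With library totals alone Psmb10 was at -0.0514 and Psme2 at -0.0293 in inv(3) against control, Psme1 at 0.0174 in Sf3b1 K700E against control and Psme2 at -0.0191 with both alleles against Sf3b1 K700E. For Psme2 the interaction was -0.0020 at a mean of 5 CPM and -0.0100 with abundant genes left out. With 1 library left out Psmb10 ran from -0.0635 to 0.104 in inv(3) against control, from -0.0428 to 0.118 with both alleles against control and from -0.0498 to 0.0826 against inv(3). Psmb7 ran from -0.0137 to 0.0419 and Psme2 from -0.00839 to 0.0485 in Sf3b1 K700E against control, and Psme2 from -0.0209 to 0.0499 in the interaction.

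Over all tested genes, the deviations of same-numbered libraries from their group means had correlations of -0.38 to 0.27. Between both alleles and inv(3) these were 0.07, 0.13 and 0.15. With 3 libraries per group such values cannot tell whether same-numbered libraries were handled together. With the replicate block the counts were 4, 0, 16, 1, 16 and 0 in the order inv(3), Sf3b1 K700E and both alleles against control, both alleles against inv(3) and against Sf3b1 K700E, and the interaction.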

Other observations

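Psma7 and Psma8 encode alternative alpha subunits for the same place in the ring, and their RNA did not move together: Psma8 was lower in every library with inv(3), whereas Psma7 lay between 157 and 170 CPM in all 12 libraries. Of the members with CCGGAAG in their promoter window, 15 in number, the median log2 fold change with both alleles against control was -0.14, and it was -0.05 over the 24 members whose window lacks it. Against Sf3b1 K700E these medians were -0.15 and -0.07. The split was not particular to CCGGAAG. For CCAAT the medians against control were -0.13 over 13 members with it and -0.06 over 26 without it. Against Sf3b1 K700E they were -0.13 and -0.07. For TGACNNNGC (-0.08 and -0.09) and TATAAA (-0.08 and -0.10) the order against control was the opposite. Within the 19S particle, the medians against control were -0.14 over the 9 genes with CCGGAAG and -0.09 over the 5 without it, and against Sf3b1 K700E -0.15 and -0.11. These medians are a description and were not tested.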
